A study of Homo sapiens with 36 samples.

Results

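Promoters that carried trimethylated histone H3 lysine 4 (H3K4me3) in B2B cells and no such mark in A549 cells were collected from peak lists of chromatin immunoprecipitation sequencing (ChIP-seq). A member was a B2B H3K4me3 peak on chromosomes 1 to 19 that lay within 1 kb of a GENCODE protein-coding start site and had neither an A549 H3K4me3 peak nor an A549 RNA polymerase II (pol II) peak within 1 kb. The members were thus chosen by the H3K4me3 peaks of both lines and the A549 pol II peaks, and their H3K4me3 values are given as a description with no test. The rule found 510 members among 17023 B2B H3K4me3 promoter peaks, or 3%, and they named 397 of 10382 genes, or 3.82%, by their nearest start. Another 16489 peaks had an A549 H3K4me3 peak within 1 kb and are called promoters marked in both lines, and 24 had A549 pol II alone. A549 is a human lung adenocarcinoma line and B2B (BEAS-2B) is a non-cancerous, virally immortalised bronchial epithelial line. Both were grown as cultures with no treatment given in the labels for these libraries, and each line stands for a single source of cells. The series held 36 libraries in 18 groups of 2 replicates, of which 4 were input, and the authors merged the 2 replicates of a target before calling peaks, so that each of the 16 lists is a single value per promoter with no replicate error.

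H3K4me3 marks the nucleosomes next to start sites that are transcribed or ready to be, and pol II is the enzyme that transcribes protein-coding genes. Acetylated H3 lysine 27 (H3K27ac) and the Mediator subunit Med1 mark active promoters and enhancers, CTCF and the cohesin subunit Rad21 organise chromatin loops, and Jun, JunB and JunD are subunits of AP-1, a dimeric transcription factor that binds the element TGAGTCA and its reverse complement TGACTCA. CpG-rich starts are typical of housekeeping genes, and CpG-poor starts of genes used in particular cell types or after a stimulus.

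The members fell into 3 sets of unlike kind, which were separated after their values had been seen. A first set of 84 members, naming 59 genes, lay beyond the last A549 H3K4me3 and pol II peak of chromosome 17 (64 members), chromosome 18 (13) or chromosome 5 (7). Housekeeping genes such as ACTG1 (cytoplasmic gamma-actin), P4HB (a protein disulfide isomerase), FASN (fatty acid synthase) and RACK1 (a ribosomal scaffold protein) were among them. Past those positions the A549 H3K4me3, pol II, H3K27ac, Med1 and JunB lists and the B2B Med1 list held 0 peaks (the H3K27ac and Med1 lists end before chromosome 17), whereas the A549 Jun list held 133 and the A549 JunD list 102. On chromosome 17 the last A549 H3K4me3 or pol II peak ended at position 81166807 of a chromosome of 83257441 bp, and all 64 B2B promoter peaks beyond it were members. Of the 84 members, 57 (67.9%) had an A549 Jun peak within 1 kb and 47 (56.0%) an A549 JunD peak. A missing mark and a list that stops short cannot be told apart in these stretches, so the shares of members with a peak of another list are given with and without them, and gene lists are counted without them. Whether these lists had been trimmed to the chromosome lengths of an older genome build was not tested. Without the ends, 426 of 16939 peaks (2.51%) and 338 of 10323 genes (3.27%) remained.

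**Figure D1:**
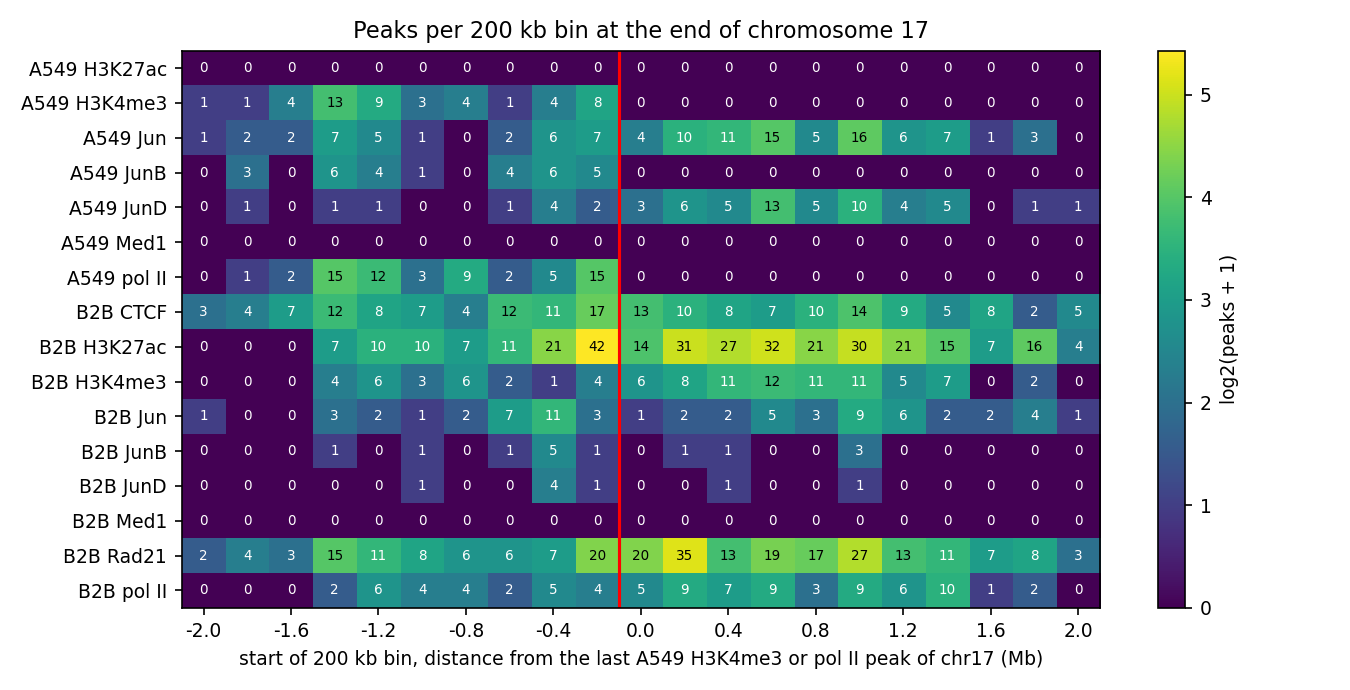
Peaks per 200 kb bin in each of the 16 lists at the end of chromosome 17, with the distance from the last A549 H3K4me3 or pol II peak on the horizontal axis in Mb (the red line is 0) and colour on a log2(peaks + 1) scale. The A549 H3K4me3, pol II and JunB rows are empty to the right of the line, while the A549 Jun and JunD rows and the B2B rows other than Med1 go on; the A549 H3K27ac list and both Med1 lists hold no peak anywhere on chromosome 17.

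A second set of 67 members belonged to zinc finger genes on chromosome 19, and the other 359 members, naming 284 genes, are called the remaining members. The following sequences show the elements to which the results refer. Capitals mark matches to the interferon-type element GAAANNGAAA or TTTCNNTTTC in stretches before the RefSeq starts (GRCh38.p14) of RTP4 (chr3:187368235-187368384, plus strand), IFI44L (chr1:78620232-78620381, plus strand) and TNFSF10 (chr3:172523476-172523625, minus strand), which overlap no annotated exon.
RTP4: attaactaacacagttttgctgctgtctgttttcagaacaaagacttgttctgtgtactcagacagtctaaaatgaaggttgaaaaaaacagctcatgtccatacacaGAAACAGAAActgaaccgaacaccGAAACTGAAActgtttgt
IFI44L: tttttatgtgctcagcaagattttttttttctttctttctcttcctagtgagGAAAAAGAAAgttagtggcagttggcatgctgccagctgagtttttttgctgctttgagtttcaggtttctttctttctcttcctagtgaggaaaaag
TNFSF10: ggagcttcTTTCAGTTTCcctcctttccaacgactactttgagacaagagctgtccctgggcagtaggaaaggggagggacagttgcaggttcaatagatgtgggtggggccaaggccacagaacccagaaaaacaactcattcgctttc

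Windows of 101 bases around B2B Jun summits beside the members PDCD1LG2 (chr9:5509761-5509861) and SLFN12 (chr17:35433706-35433806), both read from the plus strand of hg38 outside any annotated exon, are given with the AP-1 element in capitals.
PDCD1LG2: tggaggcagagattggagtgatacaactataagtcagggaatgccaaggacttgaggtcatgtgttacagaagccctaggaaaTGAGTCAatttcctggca
SLFN12: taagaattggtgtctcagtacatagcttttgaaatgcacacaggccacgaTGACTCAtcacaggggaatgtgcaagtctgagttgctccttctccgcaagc

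For contrast in CpG content, stretches of 150 bases before the starts of ZNF793 (chr19:37506689-37506838, plus strand) and AIM2 (chr1:159076767-159076916, minus strand) are shown with CG in capitals, which occurs 5 times in the first and 1 time in the second. The ZNF793 stretch ends 100 bases before its start and the AIM2 stretch directly at its start, so their positions differ.
ZNF793: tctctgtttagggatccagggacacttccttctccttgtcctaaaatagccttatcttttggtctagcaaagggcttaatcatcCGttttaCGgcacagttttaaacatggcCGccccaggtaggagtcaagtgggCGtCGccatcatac
AIM2: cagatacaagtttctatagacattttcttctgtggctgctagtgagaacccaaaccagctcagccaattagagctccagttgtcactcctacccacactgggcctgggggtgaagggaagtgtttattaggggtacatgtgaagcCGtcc

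Fold enrichment, the peak's pileup over the local background as the peak caller gave it, was highest at AFAP1 (an actin filament-associated protein), at 25.2, followed by GBP3 and GBP1 (interferon-induced guanylate-binding proteins), at 24.4 and 20.7. SLFN12 (a Schlafen family protein) had 19.2, ZNF793 15.7 and STXBP6 (a syntaxin-binding protein) 14.9. SPARC, a secreted matrix glycoprotein, had 13.9 over 2942 bp. ZNF736, IFI16 (a sensor of DNA), SYNPO2 (an actin-binding protein of muscle), SORBS2 (an adaptor of actin-rich junctions) and EYA1 (a developmental co-activator) followed between 12.5 and 13.5. The widest members were AFAP1 at 3219 bp, EYA1 at 3213 bp, ACTG1 at 2961 bp, SPARC, and CDKN2A at 2858 bp, followed by SLFN12 at 2740 bp and ADAMTSL1 (a secreted matrix protein) at 2646 bp. These peaks are part of what chose the members and are given as a description.

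Across the 510 members the fold enrichment had a median of 3.83 and reached 25.2, beside 3.05 in promoters marked in both lines, while their median width was 545 bp beside 849 bp. The ends of chromosomes had a median of 2.18, the zinc finger members 4.03 and the remaining members 4.10. In the median, members were narrower and, apart from those of the chromosome ends, had a higher fold enrichment. Their peaks were less significant, with a median -log10 q-value of 12.9 in all members and 10.5 in the remaining ones. Promoters marked in both lines had 21.9. Against the zinc finger promoters of chromosome 19 marked in both lines, with 4.14 and 836 bp, the zinc finger members with 4.03 and 810 bp were not higher in either. Just inside the limit on the start were peaks of SVIL, ZNF816-ZNF321P and a gene without a symbol at 918 to 931 bp, and just outside it peaks of FRMD4A, AKAP6 and KANK1 at 1009 to 1032 bp. Just inside the limit on A549 peaks were H1-5, LOXL1 and SVIL at 1042 to 1119 bp, and just outside it GATA2 and SLC20A2 at 948 to 962 bp.

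**Figure D2:**
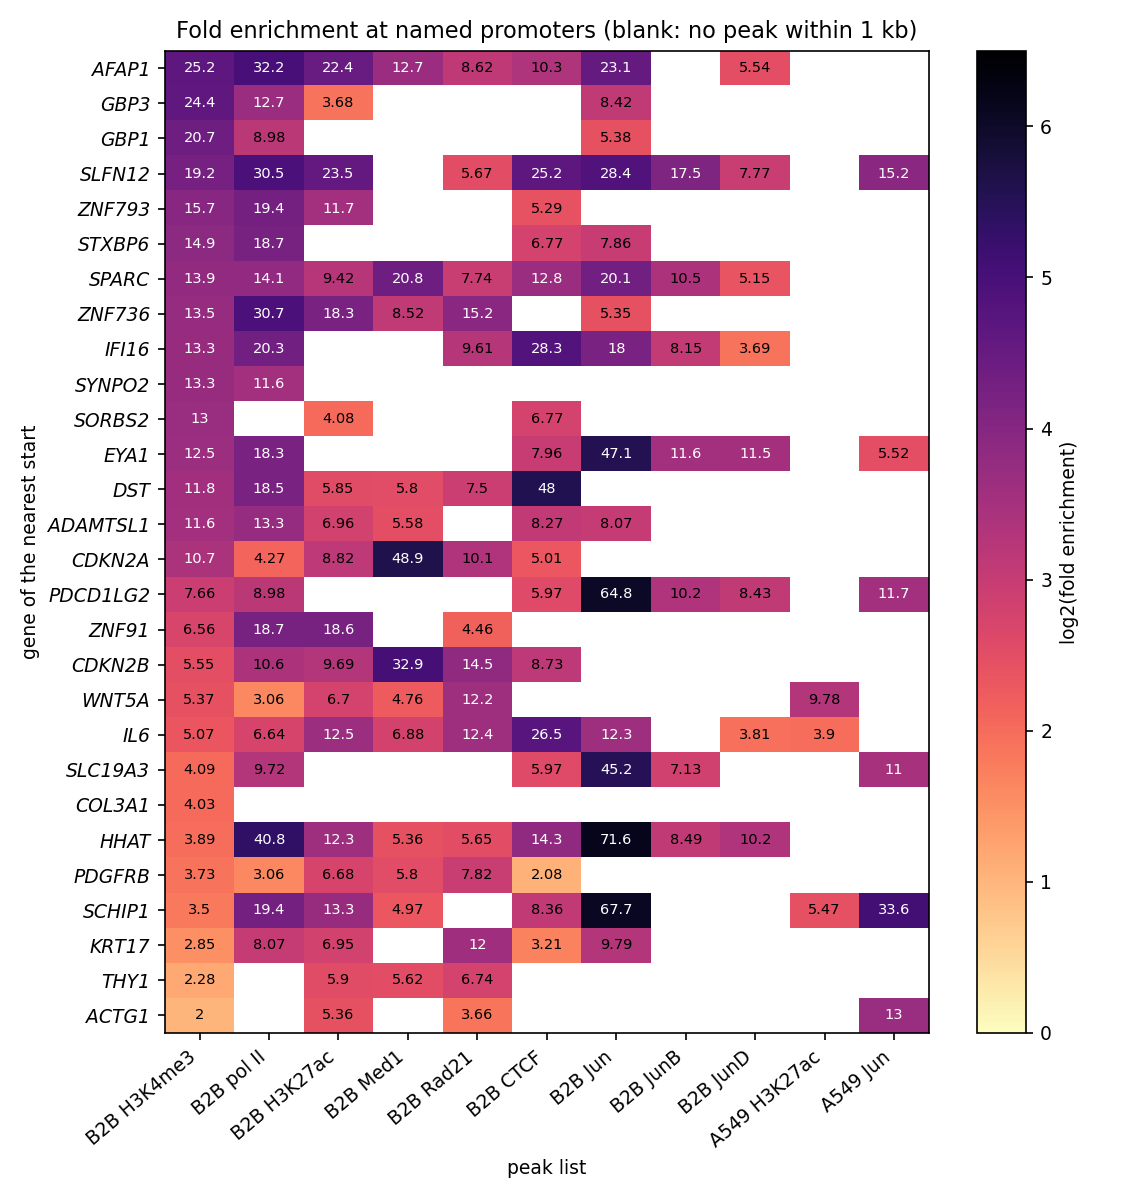
Fold enrichment at the members named by rank and at 8 members of the gene lists, with the peak lists on the horizontal axis and the gene of the nearest start on the vertical axis. Each row is the gene's member peak of highest fold enrichment and each cell the highest peak of a list within 1 kb, on a log2 colour scale with the value printed; GBP1, STXBP6, IFI16, SYNPO2 and EYA1 have B2B pol II but no B2B H3K27ac peak.

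In the opposite direction, 2757 of 14015 A549 H3K4me3 promoter peaks (19.7%) had no B2B H3K4me3 or pol II peak within 1 kb, naming 2287 of 11514 genes (19.9%). A gene named in this way can have a B2B mark at another start. The A549 H3K4me3 list held 32801 peaks with a median fold enrichment of 12.8 and the B2B list 26112 peaks with 3.42, and the part of this gap in the unequal shares was not tested. By chromosome the members' share was lowest on chromosome 14 (4 of 626 peaks, 0.639%) and highest on chromosome 17 (80 of 1046, 7.65%). Chromosome 17 fell to 16 members (1.63%) and chromosome 18 from 18 (6.02%) to 5 (1.75%) without their ends. Chromosome 19, with 80 of 1220 peaks (6.56%), and chromosome 13, with 17 of 375 (4.53%), then led.

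**Figure D3:**
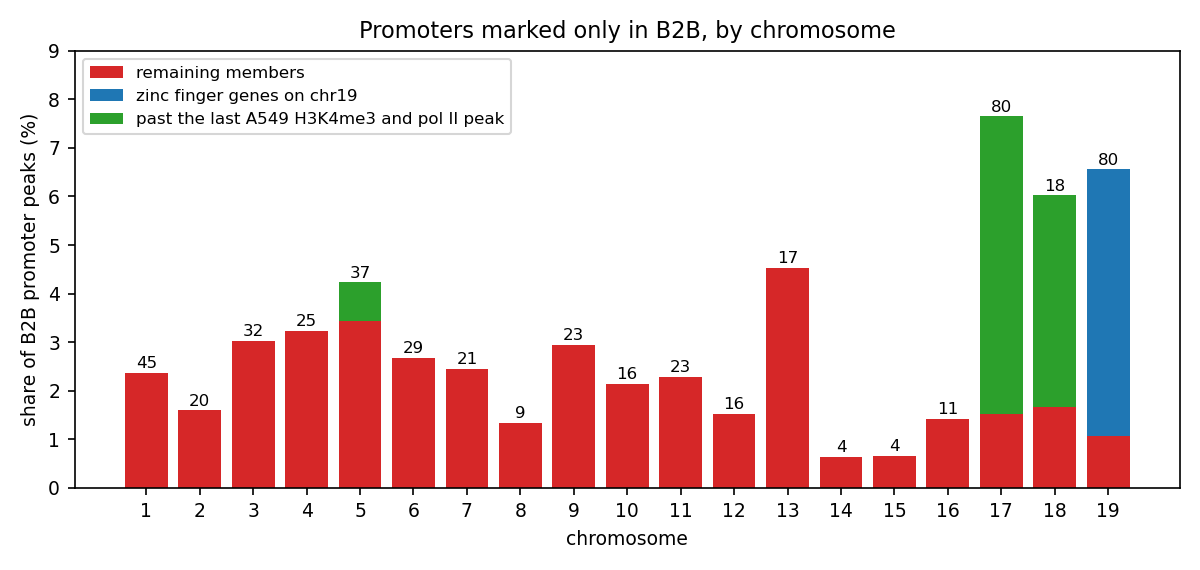
Share of the B2B H3K4me3 promoter peaks of each chromosome that were marked only in B2B, in percent, with the number of members above each bar. Colours separate the ends of chromosomes 5, 17 and 18, the zinc finger genes of chromosome 19 and the remaining members.

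KRAB-type and other C2H2 zinc finger genes, most of which encode repressors that bind repeated DNA, lie in clusters on chromosome 19. Of 303 B2B promoter peaks of zinc finger genes there, 67 (22.1%) were members, beside 13 of the other 917 peaks of the chromosome (1.42%). Counted by symbols starting with ZNF, 53 of 206 genes with a B2B promoter peak on chromosome 19 held a member, or 25.7% (95% Wilson interval 20.2 to 32.1%), beside 6 of 196 on the other chromosomes, or 3.06%, and 3.27% of all genes. In A549, 5 of 151 ZNF genes with a promoter peak on chromosome 19 (3.31%) held a promoter peak marked only in that line, against 19.9% of all A549 genes. The members stood next to each other. Off the chromosome ends, the longest run without interruption, 15 peaks from ZNF441 to ZNF625, spanned 390 kb, and runs of 8 peaks from ZNF738 to ZNF91 and from ZNF600 to ZNF816 spanned 2037 and 177.6 kb. Runs of 7 went from ZNF93 to ZNF85 and from ZNF610 to ZNF83. No A549 H3K4me3, pol II, Jun, JunB or JunD peak lay in the 758.6 kb around ZNF91, where B2B had 6 H3K4me3, 9 pol II and 9 H3K27ac peaks. The A549 H3K27ac and Med1 lists end before chromosome 19, so the H3K27ac peaks have no A549 counterpart to compare. Another 231 promoter peaks of the family on the chromosome were marked in both lines. Genes of these clusters share long similar stretches, and how the authors treated reads with several matches is not given in the sources used here.

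Most zinc finger members carried H3K27ac and pol II in B2B. H3K27ac lay within 1 kb of 66 of 67 (98.5%), beside 99.6% of the zinc finger promoters marked in both lines, pol II near 79.1% beside 74.9%, and Rad21 near 77.6% beside 84.0%. Jun was near 2 of 67 (2.99%, interval 0.823 to 10.3%) and JunB and JunD near 0, which allows up to 4.48%. ZNF793 had H3K27ac at 11.7-fold and pol II at 19.4-fold, and ZNF91 had 18.6 and 18.7. Their starts were CpG-rich, with an observed to expected CpG ratio of at least 0.6 and a G + C content of at least 50% over 1000 bp, in 65.7% of cases, beside 86.6% of the zinc finger promoters marked in both lines.

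Genes of the interferon response formed a further group. The list of 72 such genes was written after member names had been seen and so is no independent evidence of their number. Of the 62 that had a B2B promoter peak, 22 held a member (35.5%, background 3.27%), in 26 peaks with fold enrichments of 2.39 to 24.4. On chromosome 1, GBP3, GBP1, GBP2 and GBP4 made a run of 5 peaks over 177.2 kb. GBP2 had 4.01 and GBP4 4.30. TRIM22, an antiviral ubiquitin ligase, had 10.9 with pol II at 22.8, and IFIT3, which binds viral RNA complexes, had 10.9 with pol II at 12.5. OAS2, a sensor of double-stranded RNA, had 5.57, IFI44L 7.48, TNFSF10 (the death ligand TRAIL) 8.94 and STING1, the adaptor of cytosolic DNA sensing, 2.39. DHX58, UBA7, BST2, RTP4, IFITM1, EPSTI1, CIITA, IRF2, PARP10 and TNFSF13B made up the rest with IFI16 and SLFN12. Of a list of 12 inflammasome genes written in the same way, 7 had a B2B promoter peak and 4 held a member, namely AIM2, CARD16, CASP1 and NLRP3, at 4.31, 5.29, 6.13 and 6.82. In A549, 2 of 45 interferon genes with a promoter peak (4.44%) held a promoter peak marked only in that line, against 19.9% of all A549 genes.

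The interferon members differed in what else they carried. Of the 26 peaks, 19 had B2B pol II within 1 kb, 14 H3K27ac and 8 Jun. EPSTI1 and PARP10 also had A549 H3K27ac, at 6.98- and 8.99-fold, without A549 H3K4me3 within 1 kb. For 7 of the 26 peaks, of IFI16, IFIT3, IFITM1, IRF2 and PARP10, another start of the gene was marked in A549. The nearest A549 H3K4me3 peak lay between 1.61 kb (BST2) and 128.9 kb (IFI44L) away, and 1.80 kb away for GBP2. The 300 bases from 250 before to 50 after the nearest start were searched for GAAANNGAAA or TTTCNNTTTC on either strand. Of 24 distinct starts of these members, 16 held a match (66.7%, interval 46.7 to 82.0%). So did 25 of 59 interferon-list starts marked in both lines (42.4%, interval 30.6 to 55.1%), and the 2 intervals overlap. The share was 5.98% (21 of 351) in the other members off the chromosome ends and 2.92% in all 14991 starts nearest to a B2B promoter peak. As the list was written after member names had been seen, the contrast with other members is a description. A match is a matter of letters in the window and says nothing on binding.

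At 9p21 the members included CDKN2A and CDKN2B, which encode inhibitors of the cell cycle kinases. As background, this region is known to be deleted in A549. Between positions 21812742 and 22153973 of chromosome 9, a stretch of 341.2 kb, the 7 A549 lists held 0 peaks, and the B2B lists held 15 H3K4me3, 29 pol II, 16 H3K27ac, 20 Med1 and 26 Jun peaks. The 4 members of CDKN2A had fold enrichments of 3.67, 4.08, 5.29 and 10.7 and the 2 of CDKN2B 3.02 and 5.55. Med1 reached 48.9 at CDKN2A and 32.9 at CDKN2B. Of 8 genes listed for 9p21, 5 had a B2B promoter peak and no other than these was a member.

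Other members lay in long stretches without an A549 peak of any list. The widest were 2650 kb around SLITRK1, where B2B had 25 Jun, 3 JunD and 3 H3K4me3 peaks, 2315 kb around PCDH17, 2290 kb around PRMT6, 1973 kb around ROBO1, 1801 kb around ZNF385D, 1762 kb around SLITRK6 and 1616 kb around PCDH20. B2B had few peaks there too, with 1 to 3 H3K4me3, 0 or 1 pol II and 3 to 25 Jun peaks in each of these stretches. Those around SLITRK1, PCDH17, SLITRK6 and PCDH20 lie on chromosome 13, which the A549 H3K27ac list does not cover in full. How often stretches of this length lack A549 peaks elsewhere was not tested. PRMT6 encodes an arginine methyltransferase, ZNF385D a zinc finger protein, ROBO1 a guidance receptor and the others neuronal transmembrane and adhesion proteins. The genes described next were picked out after their values had been seen. PCDH17 had an H3K4me3 peak of 6.80-fold and pol II of 12.6-fold and no H3K27ac, and CDH10 had 8.16 and CDH12 7.16 with no pol II and no H3K27ac. CDH18, CDH12 and CDH10, which encode type II cadherins, formed a run of 4 peaks. TENM2, a teneurin, had 8.02 with none of the 8 other B2B lists within 1 kb.

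The lists of lung, matrix and signalling genes held few genes with a B2B promoter peak, and their shares of members are to be read against 3.27% of all genes. Of 18 mesenchymal and matrix genes with a B2B promoter peak, 3 held a member (16.7%, interval 5.84 to 39.2%), namely SPARC, LOXL1 (an elastin and collagen crosslinking enzyme) and THY1 (a fibroblast surface protein), with 13.9, 2.70 and 2.28. COL3A1 was the single member among 10 collagen genes (interval 1.79 to 40.4%), at 4.03, with none of the other B2B lists within 1 kb. Of 10 contractile genes LMOD1 (an actin nucleator of smooth muscle), at 5.75, and SYNPO2 were members (20%, interval 5.67 to 51%). Of 11 cytokines and chemokines with a B2B promoter peak, IL6, IL1A and TNFSF10 were members (27.3%, interval 9.75 to 56.6%). IL6, a mediator of inflammation, had 2 peaks of 5.07 and 4.43, H3K27ac at 12.5, Jun at 12.3 and CTCF at up to 32.7, and A549 H3K27ac at 3.90. IL1A had 3.74 with pol II and Jun and no H3K27ac. PDGFRB, a receptor of mesenchymal growth factors, was the single member of 34 growth factor and receptor genes (2.94%), at 3.73, with H3K27ac at 6.69 and Med1 at 5.80. KRT17, a basal cell keratin, was the single one of 7 basal airway genes, at 2.85. Of 11 simple epithelial and lung lineage genes with a B2B promoter peak none was a member, and a count of 0 of 11 allows a share of up to 27.3%. In the A549 direction, genes with an A549 promoter peak were counted where they held a promoter peak marked only in A549, against 19.9% of all A549 genes. Such genes can have a B2B mark at another start, and SYNPO2 was counted in both directions. The counts were 9 of 17 simple epithelial and lung lineage genes (52.9%), 6 of 22 mesenchymal and matrix genes (27.3%) and 4 of 11 basal airway genes (36.4%). They were 12 of 43 for growth factor and receptor genes (27.9%), 1 of 8 for collagen genes, 2 of 10 for contractile genes and 3 of 12 for cytokines. Immune and endothelial or neural marker lists had 1 gene each with a B2B promoter peak and 0 members.

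By family, HOXB4 (1 of 14), MEIS1 (1 of 3), WNT5A (1 of 4), CLDN11 (1 of 6), PCDHGA11 and PCDHGB2 (2 of 8), ADAMTSL1 (1 of 9 genes whose symbols start with ADAMTS) and 5 of 170 SLC transporters (2.94%) were members. The SOX, FOX, PAX, TBX, LHX, sine oculis-type homeobox, DLX, SEMA, PLXN, ephrin and Eph, FZD, KCN, integrin, laminin and IGFBP families had 0 members off the chromosome ends, among 1 to 20 genes each with a B2B promoter peak, and 0 of 20 still allows 15%, above the background of 3.27%. The chromosome ends held another 4 SLC genes, 1 FOX gene and 1 oncogene of the study's list. MEIS1, a homeobox factor, had 6.68 with H3K27ac at 16.7. Of the oncogenes that the study listed, 13 of 420 with a B2B promoter peak held a member, or 3.10% (interval 1.82 to 5.22%), beside the background of 3.27%. They were ACKR3, BCL9, CDKN2A, CIITA, DDR2, FLI1, IL7R, LRIG3, NFIB, PDCD1LG2, PDGFRB, SPOP and TNFRSF14, and the list also holds genes that are known as tumour suppressors.

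A member did not always mean a gene without any A549 mark. Off the chromosome ends, 284 members of 226 genes had no A549 H3K4me3 or pol II peak within 1 kb of any protein-coding start of the gene, and 142 members of 112 genes had such a peak near a start of the gene and were counted as alternative promoters. For 5 of these, of ICAM1, LOXL1, LRRIQ4 and SVIL, the marked start was the member's own nearest start, so they are not alternative in the strict sense. AFAP1, STXBP6, SYNPO2, IFI16 and EYA1 were marked at another start. Over the other 136 alternative promoters among the remaining members, the nearest start with an A549 mark lay at a median distance of 33.7 kb (quartiles 10.1 and 63.7 kb), and for AFAP1 at 67.8 kb. The nearest A549 H3K4me3 peak of any kind lay within 5 kb of 58 of the 426 members and farther than 50 kb from 181.

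The kinds differed beyond counting error. Jun lay within 1 kb of 72 of 141 alternative promoters (51.1%) and of 62 of 218 remaining members whose gene had no A549 mark (28.4%), a difference of -22.6 percentage points for unmarked minus alternative (95% Newcombe interval -32.5 to -12.3). Rad21 went the other way, at 31.9% and 54.1% (22.2 points, 11.8 to 31.9), as did H3K27ac, at 53.9% and 66.5% (12.6 points, 2.29 to 22.8). CTCF was near 45.4% of the alternative promoters and 32.1% of the others (-13.3 points, -23.4 to -3.01). For Med1 the interval, -8.48 to 13.6 points, included 0. Without the 5 peaks marked at their own start the Jun, Rad21, H3K27ac and CTCF differences were -23.0, 23.2, 12.8 and -13.5 points. These intervals cover the counting of promoters only, and neighbouring peaks of the same gene share their surroundings.

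The question for the lists that the rule did not use was whether members resembled promoters marked in both lines. In B2B, fewer of them had H3K27ac, Med1 and Rad21. H3K27ac was within 1 kb of 371 of 510 members (72.7%), against 95.7% of the 16489 promoters marked in both lines, a difference of -22.9 points (95% Newcombe interval -26.9 to -19.2). Among the remaining members it was 61.6%, a difference of -34.0 points (-39.2 to -29.1). Med1, scored on chromosomes 1 to 14, was near 39.1% of members against 91.0% (-51.9 points, -57.1 to -46.4). Rad21 was near 58.2% against 90.6% (-32.4 points, -36.7 to -28.1), and CTCF near 34.7% against 42.7% (-8.01 points, -12.1 to -3.71). For CTCF the interval reached 0 when overlap of at least 1 bp was asked for or chromosomes 1 to 12 were used. Without the chromosome ends and zinc finger genes the Med1, Rad21 and CTCF differences were -51.0, -45.3 and -5.58 points (-10.5 to -0.414 for CTCF). B2B pol II, whose A549 counterpart was part of the rule, was near 57.6% and 78.1% and is a description.

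AP-1 went the opposite way. Jun was near 146 of 510 members (28.6%, interval 24.9 to 32.7%) against 14.9% of promoters marked in both lines, a difference of 13.7 points (9.95 to 17.8), which was 22.4 points (17.5 to 27.5) for the remaining members, 37.3% of which had Jun. JunB was near 5.10% against 1.95% (3.15 points, 1.54 to 5.43) and JunD near 4.12% against 0.855% (3.26 points, 1.85 to 5.36). Without the chromosome ends and zinc finger genes the JunB and JunD differences were 5.27 and 4.98 points. The highest summed fold enrichment of the 3 subunits was at HHAT (an acyltransferase of Hedgehog proteins), with Jun at 71.6, JunB at 8.49 and JunD at 10.2, then at PDCD1LG2 (the immune checkpoint ligand PD-L2), with Jun at 64.8, and EYA1, with Jun at 47.1. SCHIP1, DST (a cytoskeletal linker), SLFN12 and SLC19A3 (a thiamine transporter) followed, with Jun between 28.4 and 67.7. All of these genes except HHAT also had an A549 Jun peak within 1 kb, from 5.52-fold at EYA1 to 33.6-fold at SCHIP1. DST and SLFN12 had A549 JunB as well, at 6.89- and 22.6-fold. These strong Jun sites were thus mostly not limited to B2B, although A549 Jun was near 20 of the 426 members off the chromosome ends.

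**Figure D4:**
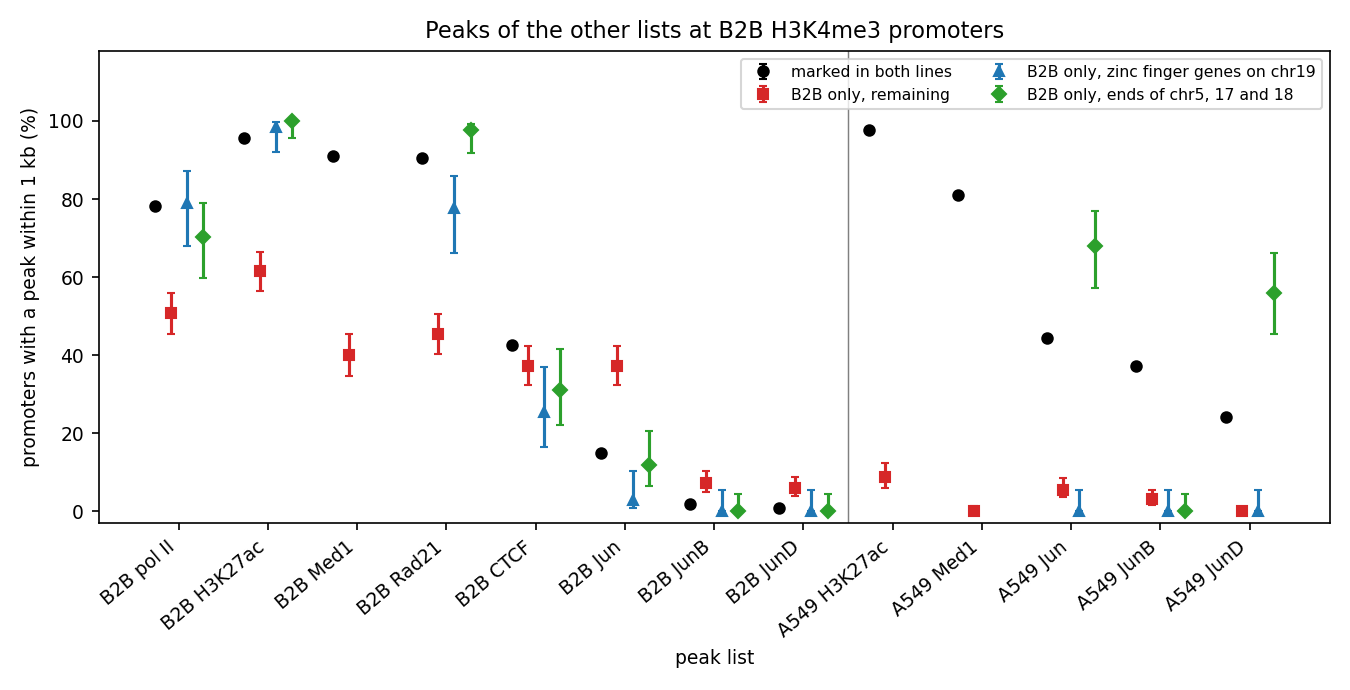
Share of promoters with a peak of each list within 1 kb, in percent, with 95% Wilson intervals as bars, for promoters marked in both lines and the 3 sets of members; sets with under 20 promoters on the chromosomes a list covers are left out. The remaining members lie above the promoters marked in both lines for B2B Jun, JunB and JunD and below them for the other B2B lists, and the chromosome ends lie above them for A549 Jun and JunD.

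No difference in the AP-1 element was detectable under the Jun peaks of members. Of 128 distinct Jun peaks near the remaining members, 41 (32.0%) held TGAGTCA or TGACTCA in the 101 bases around the summit, against 659 of 1910 (34.5%) near promoters marked in both lines, a difference of -2.47 points (-10.2 to 6.29), and 39.8% of all 41555 Jun peaks. PDCD1LG2 and SLFN12 held the element, as printed above, and HHAT, SCHIP1, DST and SLC19A3 did not.

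Members were less often CpG-rich than promoters marked in both lines. Starts were CpG-rich at 210 of 510 members (41.2%, interval 37.0 to 45.5%) against 88.7% of promoters marked in both lines, a difference of -47.5 points (-51.7 to -43.1). The share was 91.7% in the chromosome ends, 65.7% in the zinc finger members and 24.8% in the remaining ones, among whose alternative promoters it was 14.9%. For the remaining members the difference was -63.9 points (-68.1 to -59.2). Promoters marked only in A549 were CpG-rich in 66.6% of 2757 cases. Several of the differences above moved with this property. Within CpG-poor starts Jun was near 40.7% of members and 29.8% of promoters marked in both lines (10.9 points, 5.08 to 16.9), and the intervals of JunB (-2.24 to 4.41 points) and JunD (-0.684 to 5.24) included 0. Within CpG-rich starts Jun was near 11.4% and 13.0% (-1.55 points, -5.22 to 3.49) and H3K27ac near 99.5% and 97.5% (2.04 points, -0.144 to 2.51). Within CpG-poor starts H3K27ac was near 54.0% and 81.3% (-27.3 points, -33.2 to -21.5). The Med1, Rad21 and CTCF differences stayed below 0 with their intervals in CpG-rich (-28.5, -4.31 and -15.1 points) and CpG-poor starts (-38.6, -25.55 and -13.1). Of the 210 CpG-rich members, 77 were of the chromosome ends, 44 zinc finger members and 89 remaining members.

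The remaining members without B2B H3K27ac differed from those with it. Of 359, 138 peaks of 114 genes had no B2B H3K27ac peak within 1 kb, and 1 of these 138 starts was CpG-rich, against 88 of the 221 with H3K27ac (39.8%). Their median fold enrichment for H3K4me3 was 4.87, beside 3.65 in the others, and their median width 350 bp beside 536 bp. Jun was near 69 of them and 65 of the 221 with H3K27ac (29.4%), a difference of -20.6 points for with minus without (-30.5 to -10.2). Med1 was near 4.62% and 65.6% (60.9 points, 52.1 to 68.0), Rad21 near 12.3% and 66.1% (53.7 points, 44.6 to 61.2) and pol II near 31.9% and 62.4%, while CTCF was near 36.2% and 38.0%. In promoters marked in both lines Jun was near 115 of the 717 without H3K27ac and 14.8% of those with it. GBP1, STXBP6, IFI16, SYNPO2, EYA1, PDCD1LG2, CASP1 and AIM2 were among the 138, and 35 of the 138 had no peak of any other B2B list within 1 kb.

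**Figure D5:**
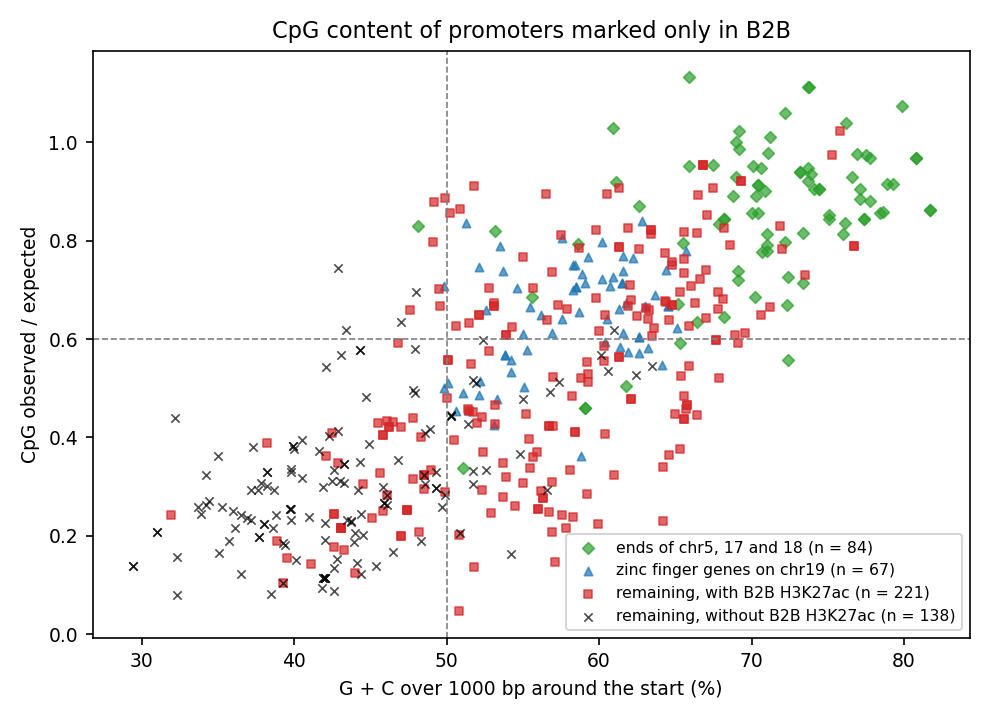
Observed to expected CpG ratio against G + C content over 1000 bp around the nearest start, 1 point for each member, with dashed lines at 0.6 and 50%. Remaining members without B2B H3K27ac (crosses) fill the lower left, and 1 of the 138 is in the upper right area, where most members of the chromosome ends lie.

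In A549, few members had a peak of the lists that the rule did not use. Members were chosen for lacking A549 H3K4me3 and pol II, and the promoters marked in both lines for having A549 H3K4me3. Low shares of marks that accompany these 2 are thus in part built into the choice, and the differences below are no independent evidence. Off the chromosome ends Med1 was near 0 of 310 members, which allows up to 0.968%, against 81.0% of promoters marked in both lines, and JunD near 0 of 426, which allows up to 0.704%, against 24.1%. JunB was near 11 of 426 (2.58%) against 37.2% (-34.6 points, -36.0 to -32.5), and Jun near 20 (4.69%) against 44.4%, a difference of -39.7 points (-41.5 to -37.1). With the chromosome ends, Med1 was near 0 of 317 (which allows up to 0.946%), the JunB share was 2.16%, the Jun share rose to 15.1% and the JunD share to 9.22%, and the Jun difference was -29.3 points (-32.2 to -25.8). A549 H3K27ac, whose list covers chromosomes 1 to 12 in full, was near 25 of 296 members (8.45%), or 25 of 289 (8.65%) without the ends, against 97.8% (-89.4 points, -92.0 to -85.6). Counting chromosome 13 as far as the list goes, 27 members of 19 genes had it, with fold enrichments of 3.23 to 11.2, and WNT5A, IL6, PLAT (tissue plasminogen activator), MAP1B and TNFRSF14 were among them.

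B2B-only distal enhancers were somewhat more frequent near members. An H3K27ac peak that overlapped Med1, lay over 1 kb from any annotated start and had no A549 H3K27ac peak within 1 kb was found within 50 kb of the start for 39 of 296 members on chromosomes 1 to 12 (13.2%, interval 9.79 to 17.5%), against 716 of 11758 promoters marked in both lines (6.09%), a difference of 7.09 points (3.67 to 11.4), or 7.41 points without the chromosome ends. It was 24.3% and 6.11% within CpG-rich starts and 9.73% and 5.95% within CpG-poor starts. With 1 peak per gene the difference was 4.41 points (0.741 to 9.57). Members and these enhancers were both defined by missing A549 peaks, so a stretch without A549 peaks can supply both.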

How the data were processed

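Chromatin immunoprecipitation sequencing (ChIP-seq) peaks of A549 and B2B cells were analysed on hg38. Per the submitters' processing notes and the study's methods, the authors used Bowtie2 2.4.4, SAMtools 1.13 and MACS2 2.2.7.1 and merged 2 replicates per target before calling. The deposited narrowPeak lists give a score, a fold enrichment ratio over background, a -log10 q-value (all at or above 2.00 in the lists used) and a summit offset. The options, the control and the read depth are not given in the sources used here, so the depth behind a peak is unknown.

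Starts came from GENCODE release 44. Distances run between peak edges, and a gene is the one whose start lies nearest to the summit. Shares carry 95% Wilson intervals and differences 95% Newcombe intervals, which cover counting error only and stand in place of p-values, since there was 1 list per line and target. A count of 0 was set at 3 counts. Named promoters were the 12 of highest fold enrichment, the 8 widest, the 8 of highest summed Jun, JunB and JunD, and up to 6 per gene list, of which some are not reported here. The members and lists were chosen with earlier results of these data known. The A549 H3K27ac list was scored on chromosomes 1 to 12 and the Med1 lists on 1 to 14, where they are complete. The distance and interval functions were tested on simulated data. Python 3.11.15, pandas 2.3.3 and pysam 0.24.0 were used. Input libraries had no peak list and were not used here.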

Additional observations from a re-analysis of the deposited data

How the results depend on the processing

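Of 246 recomputed values, 227 kept their direction and side of 0 (or, for the number of members, stayed within 1.5 times), 12 reached 0 with their interval, 4 changed sign and 3 numbers moved. The 510 members became 296 on chromosomes 1 to 12, 182 at or below the median fold enrichment and 328 above it, which follows from taking part of the list. Requiring an overlap of at least 1 bp gave a B2B CTCF difference of -3.37 points (-6.68 to 0.372), and chromosomes 1 to 12 gave -4.23 points (-9.69 to 1.51). At or below the median fold enrichment the B2B JunB difference changed sign to -0.652 points, and the differences were -2.01 for B2B H3K27ac, 1.61 for B2B Jun, 0.297 for B2B JunD and -3.08 for A549 JunD, each with an interval that included 0. Of the 84 members of the chromosome ends, 10.7% lay above that median, 84 had B2B H3K27ac and 47 had A549 JunD. A549 JunD was near 0 of the 426 other members. The cause of the differences at or below the median was not tested. Within CpG-rich starts, a setting chosen after seeing the data, B2B H3K27ac (2.04), B2B Jun (-1.55) and B2B JunB (-0.299) changed sign, and B2B JunD (0.569) and A549 JunD (-4.79) reached 0. Of the 210 CpG-rich members, 77 were of the chromosome ends and 44 were zinc finger members, and this setting was not repeated without them. Within CpG-poor starts B2B JunB (0.620) and B2B JunD (1.79) reached 0, and without the chromosome ends and zinc finger genes as well they were 1.39 and 2.42. Leaving out the chromosome ends, the zinc finger genes or both, also chosen after seeing the data, changed no sign and no side of 0. Results rest on peaks of merged replicates, so no replicate could be left out. No paired analysis was possible because the replicates were merged before peak calling.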

Other observations

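Off the chromosome ends, 7 of 61 histone genes, taken by symbol, with a B2B promoter peak (11.5%, 95% Wilson interval 5.67 to 21.8%, background 3.27%) held a member, namely H1-1, H1-5, H2AC8, H2BC7, H2BC8, H3C8 and H4C6, a family counted after these names had been seen. In A549, 0 of 42 such genes held a promoter peak marked only in that line. H3C8 had a fold enrichment of 4.04 and A549 H3K27ac at 5.82-fold within 1 kb, and H1-5 at 4.50-fold had its nearest A549 H3K4me3 or pol II peak at 1042 bp, the closest of any member for these 2 lists. FRMD4A, a scaffold protein of cell polarity, had a run of 4 members over 26.0 kb that were not broken by any promoter marked in both lines.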
